A study of Mus musculus with 16 samples.

Results

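The E2F transcription factors and the retinoblastoma pocket proteins were followed as 10 genes, taken from the count table by symbol, out of 19799 named genes. They are 7 E2F genes (E2f1, E2f2, E2f3, E2f4, E2f6, E2f7 and E2f8) and 3 pocket protein genes (Rb1, Rbl1 and Rbl2). All 10 had enough reads to be tested, among 16245 genes tested. RNA was sequenced from 16 libraries of pmi28, a mouse myoblast line whose cells fuse into multinucleate myotubes when serum is reduced. One transgenic line carried inducible msx2, a homeobox transcription factor gene, together with GFP, and the control line carried inducible GFP alone. Each line gave 2 libraries of uninduced myoblasts, 3 of uninduced isolated myotubes and 3 of induced isolated myotubes. Myoblasts grew in 20% fetal bovine serum, and myotubes formed over 3 days in 10% horse serum, were caught on a mesh, and were kept with the cytostatic AraC before treatment. Induced myotubes received 2 µg/ml doxycycline for 24 h in growth medium. The medium of the uninduced myotubes at harvest is not given in the sources used here, so the GFP line served as the control for doxycycline, medium and GFP together. Nothing in the labels says whether replicates were separate cultures or whether a line was 1 clone, and p-values here reflect only how much these libraries vary, which may be technical.

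Most E2F proteins bind DNA together with a DP partner, and the family controls genes for DNA replication and the cell cycle. The pocket proteins RB1, p107 (Rbl1) and p130 (Rbl2) bind most E2Fs and hold their target genes silent until cyclin-dependent kinases phosphorylate them. E2f1, E2f2 and E2f3 encode the activators, E2f4 a factor that mainly represses together with a pocket protein, and E2f6, E2f7 and E2f8 repressors that need no pocket protein. When myoblasts become myotubes they leave the cell cycle, and RB1 is known for its part in keeping the nuclei of mouse myotubes out of S phase. Some E2F and pocket protein genes are themselves E2F targets.

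The library labels were first read against the targeted gene. Msx2 stood at 1340 to 1510 CPM (read counts relative to the scaled library size) in induced msx2-line myotubes, at 12.1 to 16.8 CPM in uninduced cells of that line, and at 0.803 to 1.59 CPM in the GFP line. Uninduced cells of the msx2 line therefore had measurable Msx2 RNA. Total counts per library were 19784873 to 33092666. The 10 myotube markers examined (among them Myh3, Ckm and Acta1) summed to 26800 to 33100 CPM in uninduced myotubes of both lines and to 428 to 1200 CPM in myoblasts. In bulk RNA, fewer cells of a type and less RNA per cell cannot be told apart.

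Promoter windows show which of these genes carry the letters of an E2F site just before their start. The 250 bases before each annotated start were read from RefSeq on GRCm38.p6, which held 10 starts for 8 of the 10 members. They were searched on both strands for TTTCCCGC, TTTCGCGC, TTTGCCGC and TTTGGCGC. At least 1 of these strings occurred in 3 members, Rbl1, E2f3 (the first of its starts) and E2f7, against 1.86% of all 32851 promoters and 2.8% of those of tested genes. The 3 stretches of 100 bases that hold the matches are shown 5′ to 3′ on the gene's strand, with the match in capitals.
Rbl1, chr2:157204535-157204634, minus strand: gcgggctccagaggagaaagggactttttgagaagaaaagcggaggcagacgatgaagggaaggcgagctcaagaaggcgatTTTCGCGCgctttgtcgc
E2f3, chr13:29986064-29986163, minus strand: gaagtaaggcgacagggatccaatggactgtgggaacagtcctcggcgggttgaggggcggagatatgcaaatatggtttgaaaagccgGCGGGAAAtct
E2f7, chr10:110745195-110745294, plus strand: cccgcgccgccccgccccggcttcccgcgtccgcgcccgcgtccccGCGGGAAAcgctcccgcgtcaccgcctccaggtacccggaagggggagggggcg
In Rbl1 the match lies 18 to 11 bases before the start and reads TTTCGCGC on the gene's strand. In E2f3 and E2f7 the capitals are TTTCCCGC read on the other strand, 11 to 4 and 198 to 191 bases before the start.

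The other windows, of E2f1, E2f2 (both starts), E2f6, E2f8, Rbl2 and the second E2f3 start, held none of the 4 strings, which says only that these letters are not there. The E2f1 window lies wholly within exons of E2f1 transcripts of the GENCODE M21 annotation, so the bases before its annotated transcripts are not in it. Bases shortly after the first E2f2 start matched no E2f2 transcript of that annotation. Of the bases before the second E2f2 start 46 are exonic in it. Whether either E2f2 window is a promoter in use here was not tested. A looser search dropped the first T of each string, and so also finds every 8-base match. Under it 4 of the 8 members matched, against 7.89% of all promoters and 12.2% of those of tested genes. E2f8 was the member added. The letters TAATTG, the core that many homeobox factors bind, were in 0 of the 10 windows. They were in 7.17% of all promoters and in 4.72% of those of tested genes. A match is a description of the letters and not a measured site.

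The first comparison set uninduced myotubes against myoblasts and is called differentiation below. Myotubes had also formed in horse serum, been caught on a mesh and been kept with AraC. These steps cannot be told apart from leaving the cycle here, and their part in the changes was not tested. The family changed composition: Rb1, E2f2 and E2f6 rose, and E2f7, E2f1, Rbl1 and E2f3 fell, in both lines. Of the 10 members, 3 rose and 6 fell in the GFP line, where 39.8% of tested genes rose and 37.9% fell. In the msx2 line again 3 rose and 6 fell, where 40.8% of tested genes rose and 39% fell. With most genes called in these comparisons the counts alone do little to set the members apart, and the sizes of the changes carry the description. Tests are edgeR quasi-likelihood tests with Benjamini-Hochberg adjustment over all tested genes at 0.05, and errors of log2 changes are standard errors.

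Rb1, the pocket protein gene tied most closely to the arrest of myotubes, had the largest rise of the family in both lines. It stood at 10.2 and 9.08 CPM in GFP-line myoblasts and at 78.1, 62.4 and 76.7 CPM in the uninduced myotubes. All 3 myotube libraries were far above both myoblast libraries. The difference was 2.91 ± 0.22 on the log2 scale (7.52-fold, edgeR adjusted p = 2.67e-08, n = 3 and 2). In the msx2 line it was 2.89 ± 0.22, from a mean of 9.54 CPM to 70.7 ± 17.8 CPM (SD, n = 3). Rb1 and Lpar6 lie on opposite strands and share 408 of the 5475 exonic bases of Rb1 in GENCODE M21. Whether counting used strand is not given in the sources used here, so reads in that overlap cannot be told apart.

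Rbl1, which encodes p107, the pocket protein of cycling cells, went the other way. Its levels in the GFP line were 93.3 and 89.1 CPM in myoblasts and 18.3, 20.0 and 19.2 CPM in uninduced myotubes. The groups were well apart (log2 change -2.25 ± 0.08, 4.76-fold lower, edgeR adjusted p = 8.26e-13). The msx2 line gave -2.01 ± 0.07. Rbl2, which encodes p130, the pocket protein of quiescent cells, ranged from 17.3 to 26.8 CPM over all 16 libraries and passed in neither line (0.07 ± 0.12, adjusted p = 0.619 in the GFP line, and -0.21 ± 0.12, adjusted p = 0.123 in the msx2 line, edgeR). Rbl2 shares 418 of 5057 exonic bases with Aktip on the opposite strand, with the same limit.

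Divided by transcript length, the summed level of the 3 pocket protein genes was close in myoblasts and myotubes while its make-up turned over. In the GFP line the sum was 24.8 ± 0.96 CPM per kb (SD, n = 2) in myoblasts and 23.7 ± 1.95 (n = 3) in uninduced myotubes. Rb1 made up 8.33% of it in myoblasts and 65.6% in myotubes, while Rbl1 went from 75.7% to 16.8%. The msx2 line showed the same exchange, with Rb1 at 8.82% and then 64.6%. These shares are levels over genes, each per kb of its longest coding transcript, and carry no test.

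**Figure D1:**
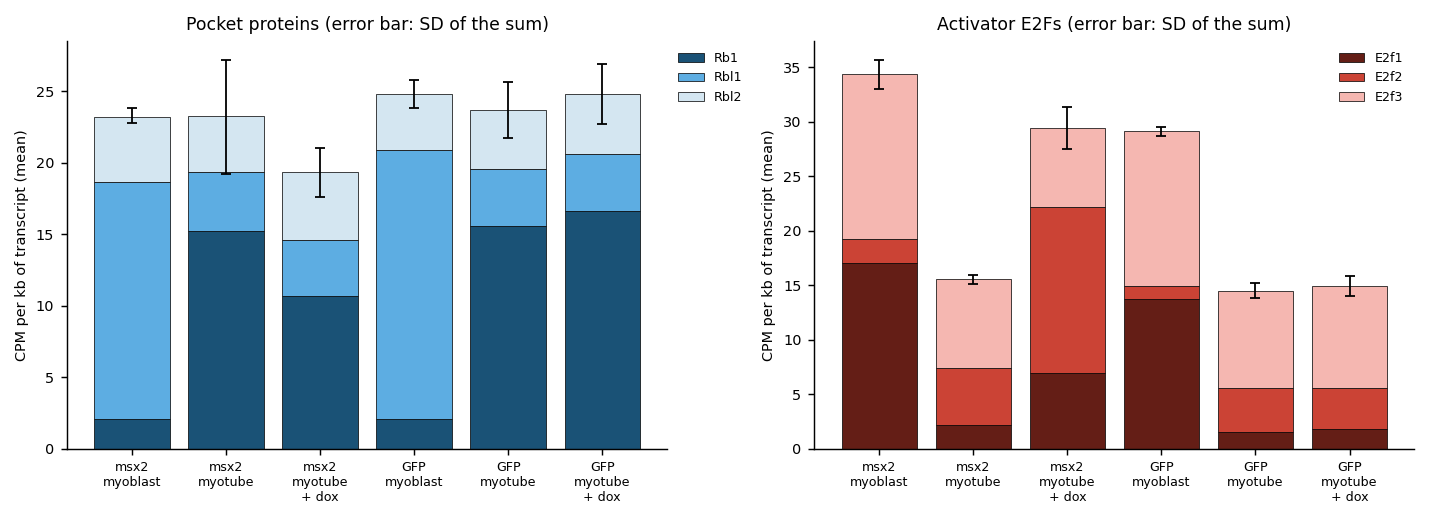
Stacked bars give the mean level per kb of transcript (y axis, CPM per kb) of the 3 pocket protein genes (left) and the 3 activator E2F genes (right) in the 6 groups, and the error bar is the SD of the sum over 2 or 3 libraries. The pocket protein sum stays between 19.3 and 24.8 while Rb1 takes the place of Rbl1 in myotubes, and the activator sum of induced msx2-line myotubes, 29.4, is made up mostly of E2f2.

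Among the activators, E2f1, the founding member of the family, fell 8.98-fold in the GFP line. Its levels were 37.3 and 38.3 CPM in myoblasts and 5.11, 3.65 and 4.00 CPM in uninduced myotubes (log2 change -3.17 ± 0.16, edgeR adjusted p = 9.32e-11). The msx2 line, from 48.3 and 45.2 CPM to 6.24, 6.90 and 4.58 CPM, gave -2.99 ± 0.16. E2f2 moved the opposite way to E2f1. It stood at 5.55 and 6.20 CPM in GFP-line myoblasts and at 19.3, 19.4 and 18.2 CPM in uninduced myotubes, 3.23-fold higher (1.69 ± 0.13, edgeR adjusted p = 1.11e-08). In the msx2 line E2f2 went from 9.89 and 10.9 CPM to 21.5, 27.9 and 25.8 CPM (1.27 ± 0.12). E2f3 fell less than E2f1, by 0.67 on the log2 scale in the GFP line and by 0.90 in the msx2 line. Per kb it made up 61.7% of the summed activator level in uninduced GFP-line myotubes, where E2f1 made up 10.6%. Counts per gene do not separate transcripts from the different starts of E2f3, here or in the activator sums below.

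E2f4, the repressive partner of the pocket proteins, had the highest level per kb of all 10 members in each of the 6 groups, from 25.1 to 40.1 CPM per kb. It fell by 0.59 ± 0.08 in the msx2 line. Its fall in the GFP line was small (-0.22 ± 0.09, edgeR adjusted p = 0.0292) and did not pass, among others, under upper-quartile scaling (-0.07, adjusted p = 0.47) or without GFP-line myoblast replicate 1 (adjusted p = 0.111), myoblast replicate 2 (0.0699), uninduced myotube replicate 1 (0.1) or uninduced myotube replicate 3 (0.0692).

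The repressors that need no pocket protein split. E2f7, an atypical E2F induced in S phase, was at 66.2 and 66.0 CPM in GFP-line myoblasts and at 3.54, 2.91 and 3.30 CPM in uninduced myotubes. This 20.4-fold fall was the largest change of any member (log2 change -4.35 ± 0.22, edgeR adjusted p = 3.03e-10), and the msx2 line gave -4.90 ± 0.23. E2f8, its closest relative, fell far less. Its levels were 74.5 and 75.6 CPM in GFP-line myoblasts and 43.8, 57.8 and 29.7 CPM in uninduced myotubes. The myotube libraries lay far apart from one another. The log2 change was -0.78 ± 0.27 (edgeR adjusted p = 0.02), and it did not pass without GFP-line myoblast replicate 1 (adjusted p = 0.0627), myoblast replicate 2 (0.0688) or uninduced myotube replicate 3 (0.0638), or, among others, under upper-quartile scaling (0.0571). In the msx2 line E2f8 fell by 1.11 ± 0.27 (adjusted p = 0.00235). E2f6, a repressor that works with Polycomb proteins, rose, from 37.5 and 34.0 CPM to 83.0, 65.9 and 75.0 CPM in the GFP line (1.06 ± 0.13, 2.09-fold, edgeR adjusted p = 1.76e-06) and by 0.85 ± 0.13 in the msx2 line.

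Falls in differentiation were found with and without an 8-base match. Rbl1, E2f3 and E2f7, which held one, fell in both lines, as did E2f1 and E2f8 among the 5 members whose windows held none, beside 37.9% and 39% of all tested genes that fell in the GFP and the msx2 line. With so few members these counts carry no statement about the match. Of the others without a match E2f2 and E2f6 rose and Rbl2 did not pass.

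Changes in differentiation were then compared between lines. None of the 10 members passed for a difference (0 of 10, edgeR, with 4 at an unadjusted p under 0.05 and 1, E2f4, by DESeq2), where 4.01% of tested genes were higher and 4.27% lower. The largest of these differences with a small unadjusted p were those of E2f2 (-0.42 ± 0.18, adjusted p = 0.159) and E2f4 (-0.37 ± 0.12, adjusted p = 0.0742).

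**Figure D2:**
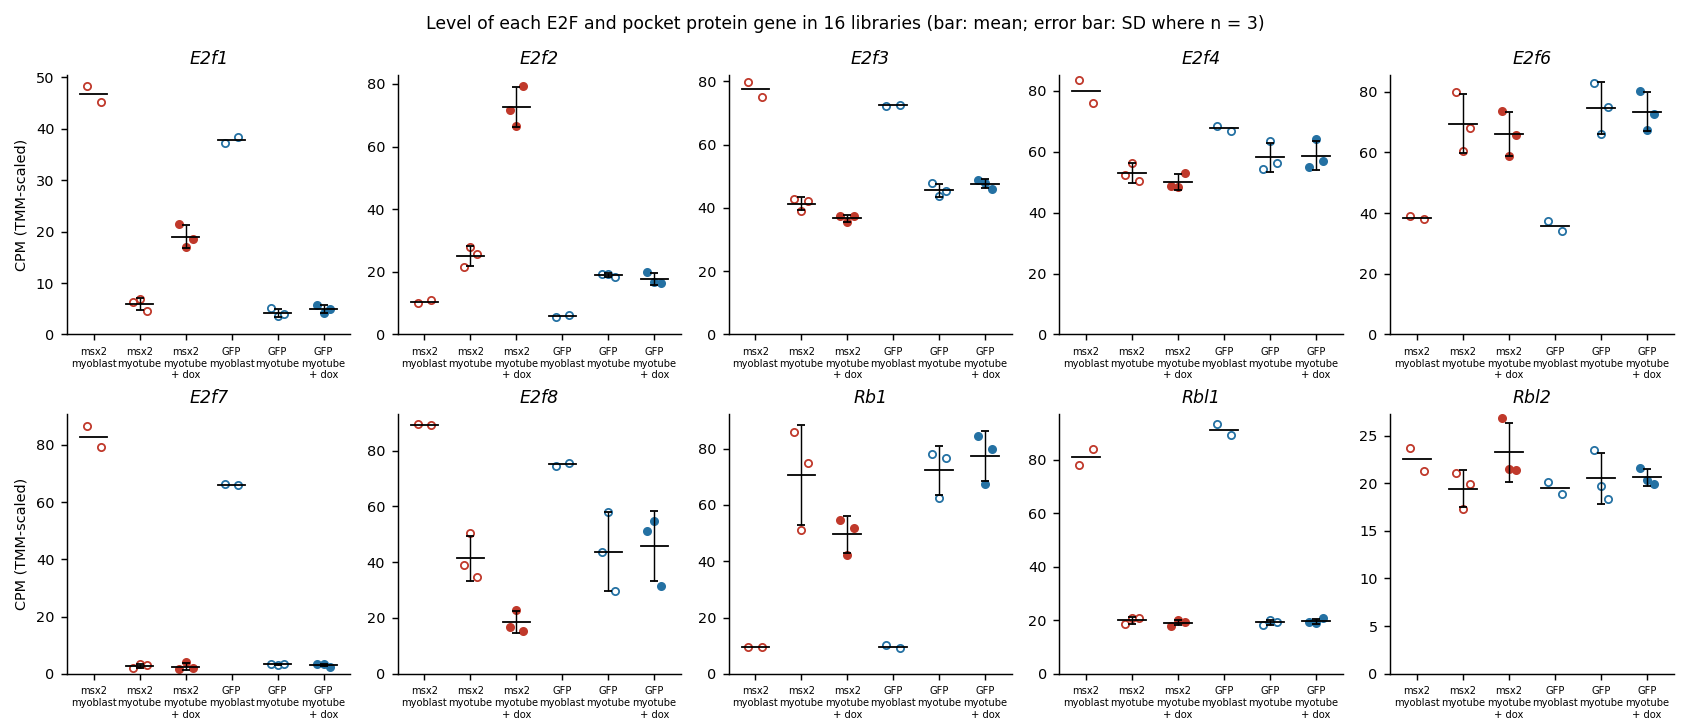
Each panel plots 1 gene in all 16 libraries (y axis, TMM-scaled CPM) by group, with open circles for uninduced and filled circles for induced libraries, red for the msx2 line and blue for the GFP line, a bar at the mean and an error bar of 1 SD where there are 3 libraries. E2f1 and E2f2 are the 2 genes for which induced msx2-line myotubes stand far above the other myotube groups (17.0 to 21.5 and 66.6 to 79.3 CPM), and for E2f8 those libraries stand lowest, at 15.5 to 22.9 CPM.

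The main comparison set induced against uninduced myotubes of the msx2 line and asked what msx2 does in cells that have left the cycle. E2f1 rose 3.24-fold and E2f2 2.89-fold, E2f8 fell 2.25-fold, and Rb1 and E2f3 fell by less. Of the 10 members 2 rose, where 16.2% of tested genes rose, and 3 fell, where 16.3% fell. The other members, E2f4, E2f6, E2f7, Rbl1 and Rbl2, did not pass. These counts lie near the share of all genes called, and what follows describes the single genes.

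E2f1 was at 6.24, 6.90 and 4.58 CPM in uninduced and 21.5, 17.0 and 18.6 CPM in induced msx2-line myotubes. Every induced library was above every uninduced one, and the rise was 3.24-fold (log2 change 1.70 ± 0.15, edgeR adjusted p = 4.16e-07). The induced level was still below that of myoblasts of the same line (46.7 CPM mean, 2.46-fold higher). In GENCODE M21 the next gene downstream of E2f1 on the same strand, Necab3, begins 516 bases beyond its end, while in RefSeq the spans of these genes overlap. GENCODE M21 gives them 0 shared exonic bases, and Necab3 was looked at after its values were seen. Necab3, a gene for a calcium-binding protein, went from 1.30, 0.889 and 0.685 CPM to 18.8, 12.8 and 15.3 CPM on induction (4.07 ± 0.22, edgeR adjusted p = 2.96e-09). In the 2 myoblast groups, where E2f1 was higher still, Necab3 stood at 0.617 to 1.12 CPM. The part of reads that run from 1 gene into the other was not tested.

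E2f2, the other activator that rose, was already higher in myotubes than in myoblasts. It stood at 21.5, 27.9 and 25.8 CPM in uninduced and at 71.8, 66.6 and 79.3 CPM in induced msx2-line myotubes. The groups were far apart, with a 2.89-fold rise (1.53 ± 0.10, edgeR adjusted p = 2.14e-08). Induced myotubes had the highest E2f2 level of the 6 groups, 6.96-fold that of their own myoblasts.

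E2f3, the third activator, moved little. Its 42.9, 38.9 and 42.3 CPM in uninduced myotubes became 37.5, 35.5 and 37.3 CPM, with no overlap (-0.17 ± 0.06, edgeR adjusted p = 0.0361). That call was lost without any 1 of 5 of the 6 libraries compared. These were uninduced replicate 1 (edgeR adjusted p = 0.118) or 3 (0.1) and induced replicate 1 (0.0611), 2 (0.121) or 3 (0.066). The call was also lost with the compared groups alone (0.145), without the low-count filter (0.0541) and with a correction for GC content (0.106). With that correction and the replicate number as a block it was lost too (0.0612). Per kb, the summed activator level went from 15.5 ± 0.42 to 29.4 ± 1.91 CPM per kb (SD, n = 3), against 34.3 in the line's myoblasts. The make-up was unlike that of myoblasts. E2f2 made up 52.0% of the sum in induced myotubes and 6.42% in myoblasts, and E2f1 made up 23.4% and 49.3%.

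E2f8 fell. Its levels were 39.0, 50.4 and 34.7 CPM in uninduced and 16.9, 22.9 and 15.5 CPM in induced msx2-line myotubes. The groups did not overlap, and the level was 2.25-fold lower (-1.17 ± 0.26, edgeR adjusted p = 0.00401). Its nearest protein-coding neighbour, Csrp3, 18378 bases away in the annotation, was also looked at after values were seen. Csrp3, which encodes a muscle LIM protein, was at 155, 140 and 130 CPM in uninduced and 60.3, 52.8 and 59.8 CPM in induced msx2-line myotubes (-1.29, edgeR adjusted p = 8.21e-06), so both neighbours fell by similar amounts. In differentiation Csrp3 rose from 1.17 and 1.46 CPM to 127 to 176 CPM in the GFP line, opposite to E2f8.

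E2f7 was low in both groups, at 2.00, 3.27 and 2.90 CPM uninduced and 1.69, 3.94 and 1.89 CPM induced (-0.15 ± 0.26, edgeR adjusted p = 0.711). Induced replicate 2 was the highest of these 6 libraries. It was also the highest of them for Mki67, a proliferation marker, at 15.9 CPM against 4.31 to 6.51 CPM. Without that library E2f7 passed as lower (-0.62, adjusted p = 0.018). The part of cycling cells in that library was not tested. E2f4 and E2f6 gave -0.08 ± 0.08 (adjusted p = 0.466) and -0.07 ± 0.11 (adjusted p = 0.67), both with overlapping groups. With a correction for GC content E2f4 passed as lower (-0.25, adjusted p = 0.0112, and -0.24, adjusted p = 0.00673, with the replicate block as well).

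Among the pocket proteins, Rb1 was at 85.8, 51.1 and 75.1 CPM in uninduced and 54.8, 42.3 and 51.7 CPM in induced msx2-line myotubes. The groups overlapped, since uninduced replicate 2 lay below 2 induced libraries, while each induced library lay below the uninduced one of the same number. The fall was 1.42-fold (-0.51 ± 0.16, edgeR adjusted p = 0.0278). It did not pass without uninduced replicate 1 (adjusted p = 0.125) or 3 (0.0854) or induced replicate 2 (0.104) or 3 (0.0547), in a fit of the compared groups alone (0.1), or with a correction for GC content (0.0702). With the replicate number as a block the call held, both alone and with the correction for GC content. At 49.6 ± 6.54 CPM (SD, n = 3) the induced Rb1 level was still 5.19-fold that of the line's myoblasts. Rbl1 did not pass (-0.07 ± 0.07, adjusted p = 0.479) and stayed at 18.0 to 20.8 CPM in these 6 libraries. Rbl2 went from 21.1, 17.3 and 19.9 CPM to 26.8, 21.5 and 21.4 CPM without overlap and did not pass (0.26 ± 0.11, adjusted p = 0.087). With the replicate number as a block, which pairs these libraries, Rbl2 passed (0.25, adjusted p = 0.0167), as it did with the correction for GC content and the block together (0.34, adjusted p = 0.00136).

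The same treatment of the GFP line was the control. On doxycycline 0 of the 10 members passed in GFP-line myotubes by edgeR, 0 had an unadjusted p under 0.05, and 0 passed by DESeq2. Log2 changes lay between -0.10 and 0.24, with adjusted p = 1 for each, and the groups overlapped for all 10. Over all genes 0.0308% were called higher and 0% lower. E2f1 went from 5.11, 3.65 and 4.00 CPM to 5.81, 4.25 and 4.91 CPM there, and E2f2 from 19.3, 19.4 and 18.2 CPM to 19.9, 16.8 and 16.4 CPM.

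The difference of the 2 inductions was tested directly. It passed for 3 members, higher for E2f1 and E2f2 (9.15% of all genes were higher) and lower for E2f8 (8.78% were lower). The differences were 1.45 ± 0.23 for E2f1 (adjusted p = 0.000302), 1.63 ± 0.14 for E2f2 (2.27e-06) and -1.23 ± 0.36 for E2f8 (0.033) by edgeR. That of E2f8 lost its call without any 1 of 8 libraries, with adjusted p between 0.0533 and 0.0797. In the msx2 line these were uninduced replicates 1 and 2 and induced replicates 1 and 3, and in the GFP line uninduced replicates 1 and 3 and induced replicates 1 and 2. Rb1 (-0.60 ± 0.23, adjusted p = 0.0921) and E2f3 (-0.23 ± 0.08, adjusted p = 0.0632) did not pass. With the replicate number as a block they did, Rb1 at adjusted p = 0.00188 and E2f3 at 0.0332, which brought the count to 5. Without msx2-line uninduced myotube replicate 2 both also passed (0.00372 and 0.0264). Rb1 passed by DESeq2 as well (-0.62, adjusted p = 0.0446), and E2f3 under upper-quartile scaling (-0.25, edgeR adjusted p = 0.0304).

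**Figure D3:**
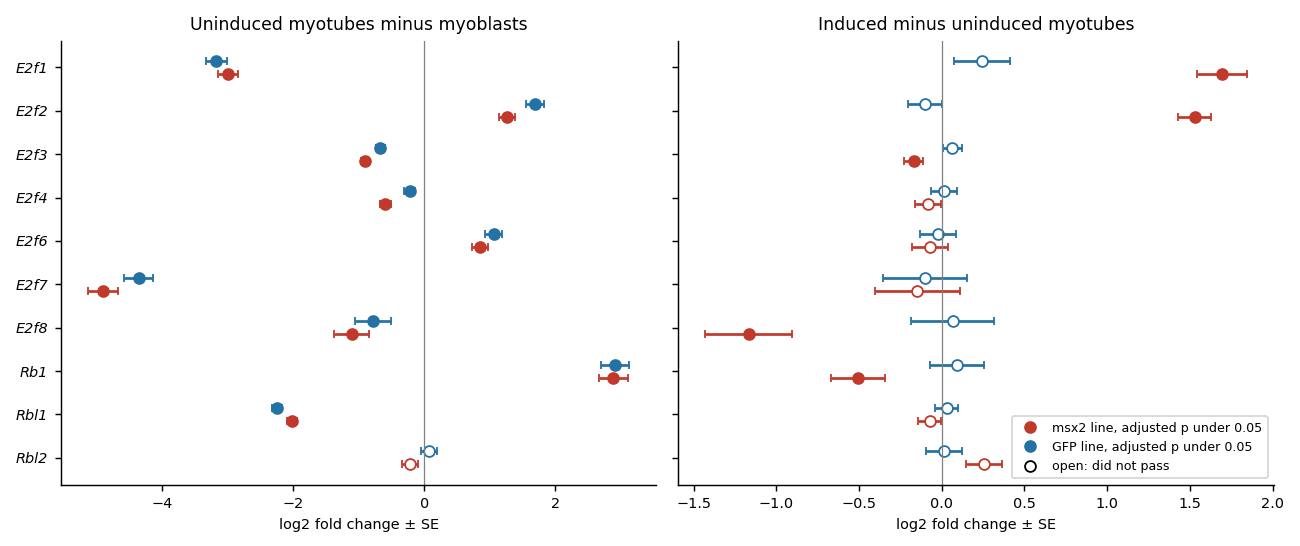
Points give the log2 fold change of each member with its standard error for differentiation (left) and for induction (right), in red for the msx2 line and in blue for the GFP line, and filled where the edgeR adjusted p is under 0.05. In differentiation the lines lie close together, from -4.90 for E2f7 to 2.91 for Rb1, while in induction every GFP-line point is open and E2f1, E2f2 and E2f8 of the msx2 line stand apart.

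The lines were also compared with each other in each state. At equal doxycycline, msx2-line myotubes differed from GFP-line myotubes in 6 members, 2 of them higher (17.6% of all genes were higher) and 4 lower (17.8% were lower). E2f1 was 3.82-fold and E2f2 4.10-fold higher, and E2f8 was 2.48-fold, Rb1 1.56-fold, E2f3 1.29-fold and E2f4 1.17-fold lower. For these 6 the libraries of the lines did not overlap. Rb1, at 42.3 to 54.8 CPM against 67.4 to 84.6 CPM, was thus apart in this comparison (-0.64 ± 0.16, edgeR adjusted p = 0.00738). E2f4 (-0.23 ± 0.08, edgeR adjusted p = 0.0311) lost its call without induced msx2-line replicate 1 (0.108) or 2 (0.103) or induced GFP-line replicate 2 (0.160). It also lost it in a fit of the compared groups alone (0.0674). E2f7 passed as lower (-0.74, adjusted p = 0.00659) without induced msx2-line replicate 2.

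Few of the 10 members passed for a difference between the lines without induction. In uninduced myotubes 0 of 10 members passed by edgeR, 3 had an unadjusted p under 0.05, and DESeq2 called 1 (E2f2, 0.39, adjusted p = 0.0452). Over all genes 0.00616% were called higher in the msx2 line and 0.0554% lower. E2f2 was nonetheless higher in all 3 msx2-line libraries, 21.5 to 27.9 CPM against 18.2 to 19.4 CPM (0.40 ± 0.10, edgeR adjusted p = 0.143). In myoblasts, with 2 libraries each, E2f2 alone passed, at 9.89 and 10.9 CPM against 5.55 and 6.20 CPM (0.82 ± 0.15, 1.77-fold, edgeR adjusted p = 0.00149). Of all genes 9.09% were higher in msx2-line myoblasts and 7.24% lower. In a fit of the myoblast groups alone 6 members passed, E2f1, E2f2, E2f4, E2f7 and E2f8 as higher and Rbl1 as lower. The share of all genes called in that fit was not counted, so these 6 cannot be set beside it. E2f2 was therefore higher in msx2-line myoblasts without doxycycline, where Msx2 stood at 16.4 and 16.8 CPM. Myotube markers moved with it: 8 of 10 were higher in msx2-line than in GFP-line myoblasts and 0 lower (median log2 1.51 beside 0.08 for all genes), with sums of 1190 to 1200 and 428 to 443 CPM and none at 0 reads. Their part in the E2f2 difference was not tested.

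Induced msx2-line myotubes were set against their own myoblasts to see how near the family came to the cycling state. Horse serum, the mesh and AraC set these groups apart as well, and their part was not tested. Of the 10 members 3 were higher (42.4% of all genes were) and 6 lower (38.4%). E2f7 was lowest against myoblasts (log2 change -5.05 ± 0.23). E2f8 was 4.84-fold, Rbl1 4.24-fold and E2f1 2.46-fold lower than in myoblasts, and E2f2 6.96-fold, Rb1 5.19-fold and E2f6 1.72-fold higher. Rbl2 did not pass (0.04 ± 0.12, edgeR adjusted p = 0.742).

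Genes that E2F controls in S phase fell in differentiation, and most did not pass in induction. In GFP-line differentiation 36 of the 37 targets tested fell and 0 rose, where 37.9% of all genes fell and 39.8% rose. Their median log2 change was -3.10 beside 0.06 for all genes. Mcm6, a subunit of the replicative helicase, went from 185 to 6.26 CPM, and Dnmt1, the maintenance DNA methyltransferase, from 253 to 37.9 CPM. In msx2 induction 3 rose, 4 fell and 30 did not pass, where 16.2% of all genes rose and 16.3% fell. The median was 0.05 beside -0.01. Cdc45, a helicase cofactor, rose from 7.55 to 16.1 CPM (1.09 ± 0.11, edgeR adjusted p = 1.6e-06) and Dnmt1 from 35.6 to 58.0 CPM (0.70 ± 0.07, adjusted p = 1.1e-06). Rrm2, the small subunit of ribonucleotide reductase, fell from 118 to 49.9 CPM (-1.24 ± 0.12) and Rfc3, a clamp loader subunit, from 7.27 to 4.93 CPM (-0.57 ± 0.14). The summed level of the 37 genes was 616 to 663 CPM in uninduced and 541 to 603 CPM in induced msx2-line myotubes. It was 4350 to 4530 CPM in the line's myoblasts. Each induced library lay below each uninduced one, but Rrm2 had the largest fall in CPM of the 37 and weighs most in this. The median change of the 37 genes, 0.05, was not a fall.

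Markers of cycling cells were read beside the E2F genes. All 15, among them Top2a, Cdk1 and Plk1, fell in GFP-line differentiation, where 37.9% of all genes fell, with a median of -4.91. In msx2 induction 0 of 15 passed by edgeR, 1 had an unadjusted p under 0.05 and 0 passed by DESeq2. Their median was 0.23, and 16.2% of all genes rose and 16.3% fell. Their sum was 157 to 179 CPM in uninduced and 151 to 205 CPM in induced msx2-line myotubes, and 2510 to 2560 CPM in the myoblasts. E2f1 and E2f2 thus rose while this sum overlapped between the groups. Kif11, at a mean of 105 CPM uninduced and 96.1 CPM induced, was the largest part of the sum in these myotubes, so the sum says little of the other markers. None of the 15 was at 0 reads in any group.

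**Figure D4:**
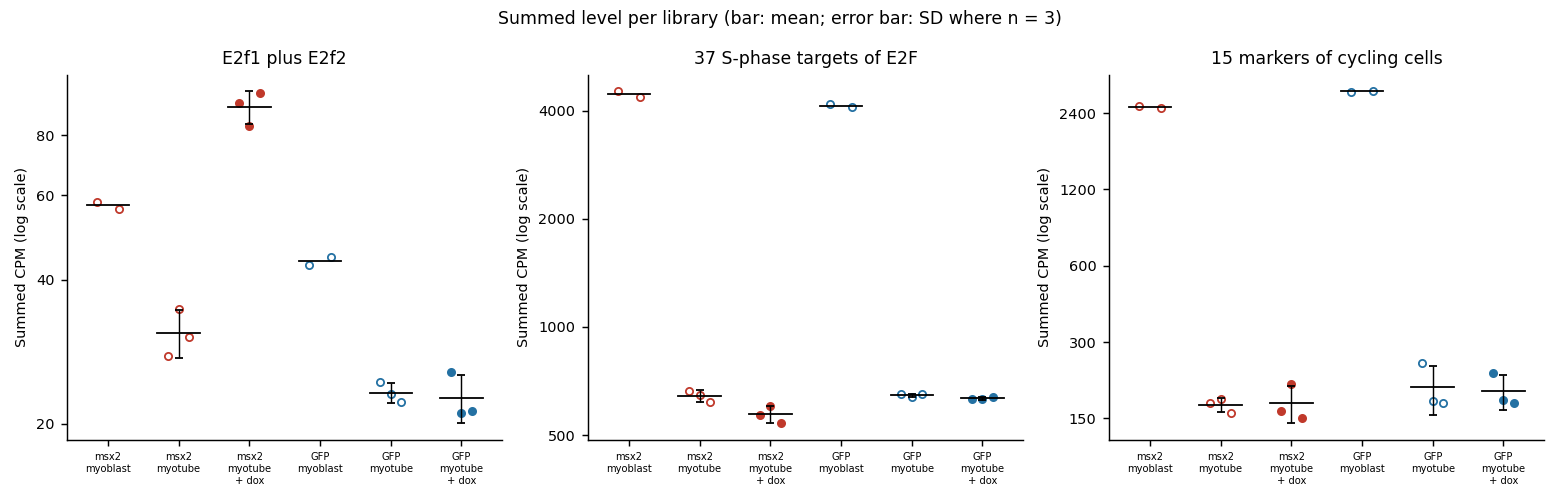
Points give, for each of the 16 libraries, the summed CPM (y axes on a log scale) of E2f1 and E2f2, of the 37 S-phase targets and of the 15 markers of cycling cells, with a bar at the mean and an error bar of 1 SD where there are 3 libraries. E2f1 and E2f2 together stand highest in induced msx2-line myotubes. The targets of those libraries lie at 541 to 603 CPM, below the 616 to 663 CPM of uninduced msx2-line myotubes. Both lie far below the 4080 to 4530 CPM of myoblasts. Among the targets Rrm2 fell most in CPM on msx2 induction, from 118 to 49.9. Kif11 is the largest part of the marker sum in msx2-line myotubes.

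Upstream of the pocket proteins, 2 of 17 cyclin, kinase and inhibitor genes tested rose on msx2 induction and 4 fell. Of all tested genes 16.2% rose and 16.3% fell, and the median of the 17 was -0.08. Ccnd1, the D-type cyclin that activates CDK4 and CDK6, rose from 79.7 to 339 CPM (2.09 ± 0.19, edgeR adjusted p = 2.39e-06), while Ccnd2 (0.18, adjusted p = 0.669) and Ccnd3 (0.14, adjusted p = 0.241) did not pass. Cdkn1c, an inhibitor of cyclin-dependent kinases, rose from 4.62 to 37.7 CPM (3.03 ± 0.28, adjusted p = 2.03e-06). Cdk2 (-0.67), the ubiquitin ligase gene Skp2 (-0.60) and the CDK4 inhibitor genes Cdkn2b (-0.45) and Cdkn2c (-0.68) fell. Cdkn1a, which encodes the inhibitor p21 of arrested myotubes, was at 1600 CPM before and 1520 CPM after induction (-0.08 ± 0.06, adjusted p = 0.332). Cdkn1b (0.10), Cdkn2a (-0.47, adjusted p = 0.0621) and Cdkn2d (0.26) did not pass. In GFP-line differentiation 2 of the 17 rose and 11 fell, with a median of -1.0, where 39.8% of all genes rose and 37.9% fell. Cdkn1a rose there from 89.5 to 1550 CPM and Ccnd3 from 150 to 545 CPM, while Cdk4 fell from 468 to 94.9 CPM and the kinase subunit gene Cks1b from 125 to 8.47 CPM.

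The DREAM complex, which joins p130 or p107 to E2F4, was read in 1 list with its MuvB core and E2F partners. Mybl2 and Foxm1 are in this list for MuvB and not as DREAM subunits. Of its 8 tested genes 0 rose and 1 fell on msx2 induction, where 16.2% of all genes rose and 16.3% fell. That was the DP gene Tfdp2 (-0.27 ± 0.10, edgeR adjusted p = 0.0485), with overlapping groups. In GFP-line differentiation 0 rose and 7 fell, where 39.8% of all genes rose and 37.9% fell. Tfdp1, the main DP partner, fell from 159 to 52.6 CPM and Foxm1, a factor of G2 and mitosis, from 151 to 4.74 CPM.

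Of 13 cofactors through which pocket proteins repress, 6 rose and 2 fell on msx2 induction, where 16.2% of all genes rose and 16.3% fell, with a median of 0.21 beside -0.01. In the direct difference of the inductions 2 were higher and 1 lower, where 9.15% of all genes were higher and 8.78% lower. Besides Dnmt1, the scaffold gene Sin3a rose (0.25 ± 0.05), and the histone methyltransferase gene Suv39h1 fell from 60.3 to 31.1 CPM (-0.95 ± 0.17, edgeR adjusted p = 0.000558), as did Rbbp7 (-0.23 ± 0.07). In GFP-line differentiation 3 rose and 8 fell, where 39.8% of all genes rose and 37.9% fell. Arid4b (0.70) and Kdm5a (0.66) were among those that rose and Dnmt1 (-2.74) and Sin3a (-1.37) among those that fell.

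E2f6 works within a Polycomb complex, PRC1.6, whose genes were followed beside it. Of 10 such genes 0 rose and 2 fell on msx2 induction, where 16.2% of all genes rose and 16.3% fell. L3mbtl2 fell from 79.0 to 43.1 CPM (-0.87 ± 0.08, edgeR adjusted p = 4.26e-07) and Cbx3 from 58.8 to 50.3 CPM (-0.22 ± 0.06). With the GC correction and the replicate block 3 rose and 1 fell. In GFP-line differentiation 2 rose, L3mbtl2 (0.65) and Ring1 (0.50), and 6 fell, Cbx3 from 190.0 to 56.9 CPM and Tfdp1 among them. Of all genes 39.8% rose and 37.9% fell there. Of 5 germ line genes known as E2F6 targets and tested, 0 rose and 1 fell on induction (Smc1b, -0.38 ± 0.06). In differentiation 1 rose, Slc25a31 (1.72, at 0.613 CPM in myotubes), and 2 fell, Stk31 (-1.60) and Smc1b (-0.82).

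In GFP-line induction 0 of the 85 genes tested from these pathway lists passed by edgeR, 0 had an unadjusted p under 0.05 and 0 passed by DESeq2. Markers of other states were read as whole lists in msx2 induction, where 16.2% of all tested genes rose and 16.3% fell. Of 10 myotube markers 8 fell and 0 rose, and their sum went from 26800 to 30200 CPM down to 13800 to 16700 CPM. Of 7 myoblast markers 2 rose, Pax7 (2.83-fold) and Cdh15 (1.39-fold), and 2 fell, Myf5 (-1.98) and Itga7 (-0.31), with sums of 1210 to 1380 and 1160 to 1310 CPM. Of 6 fibroblast markers tested 1 rose (Pdgfrb, 1.66), and the sums of the list were 242 to 552 and 191 to 495 CPM. Of 6 leukocyte markers Csf1r (3.02, to 6.03 CPM) and Tyrobp (0.65) rose and Itgam (-0.34) fell, with sums of 25.2 to 28.3 and 28.1 to 29.8 CPM. Of 5 endothelial markers 0 passed by edgeR or DESeq2, and 0 had an unadjusted p under 0.05. The part of other cells in the E2F changes was not tested.

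The genes whose pattern was most like a member's were taken by Pearson correlation of log2 CPM, as a description over libraries that share their groups. Over all 16 libraries Rb1 was nearest to Exoc6 (r = 0.998), Macf1 and Polr3gl, Rbl1 to Kpna2 (0.998), Ranbp1 and Hspd1, and E2f7 to Mpzl1 (0.998), Atp8b2 and Txndc5. E2f1 was nearest to Them6 (0.988), Gtl3 and Dagla, E2f2 to Klhdc3 (0.981), Irgq and Tmem127, E2f3 to Nup133 (0.995), Zbed3 and Cux1, and E2f6 to Cog6 (0.991), Cmas and Entpd4. E2f4 (Cyth3, 0.977), E2f8 (Hjurp, 0.967) and Rbl2 (Usp19, 0.791) had looser neighbours. Over the 12 myotube libraries alone, E2f1 was nearest to Fcgrt (0.993), Pgm2 and Acacb, E2f2 to Prkag2 (0.990), Llgl2 and Plxna1, and E2f6 to Nfx1 (0.951), Cecr5 and Dusp22.

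By mean level, the order of the groups differed between members. E2f1 ran from msx2-line myoblasts (46.7 CPM) through GFP-line myoblasts (37.8), induced msx2-line myotubes (19) and uninduced msx2-line myotubes (5.90) to induced (4.99) and uninduced (4.25) GFP-line myotubes, and the last 3 groups overlapped with their neighbours. E2f2 ran from induced msx2-line myotubes (72.6 CPM) through uninduced ones (25.0) and the uninduced (19) and induced (17.7) GFP-line myotubes, which overlapped, to the myoblasts of the msx2 line (10.4) and the GFP line (5.88). Rb1 stood at 77.3, 72.4 and 70.7 CPM in the other 3 myotube groups, each overlapping the next, then at 49.6 CPM in induced msx2-line myotubes and at 9.62 and 9.54 CPM in myoblasts. For E2f8 the myoblasts (89.2 and 75.1 CPM) lay above 3 overlapping myotube groups (45.7, 43.8 and 41.4 CPM), with induced msx2-line myotubes apart at 18.4 CPM. For Rbl2 each of the 6 groups, 19.4 to 23.2 CPM, overlapped the next.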

How the data were processed

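RNA-seq of 16 libraries in 6 groups was analysed. Values deposited by the authors are raw counts of reads per gene. Per the labels' protocols the kit was a stranded mRNA kit. Build mm9 and the tools edgeR 3.6.8, TopHat2 2.0.11 and SAMtools 0.1.19 appear in the submitters' processing notes. Which tool, annotation and strand setting made the counts is not given in the sources used here. The 67 of 19866 entries that name no gene (0.0601 to 0.0878% of counts) were left out.

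Genes passing filterByExpr (minimum count 10) were fitted in 1 model over all 16 libraries (edgeR 4.0.16, limma 3.58.1, R 4.3.3) with 1 coefficient per group, TMM scaling and robust quasi-likelihood tests, two-sided. Benjamini-Hochberg adjustment ran over all tested genes within every one of the 10 comparisons, and calls were made at 0.05. The standard error is the unshrunken log2 change over the root of its F statistic. CPM use TMM-scaled library sizes, and CPM per kb the longest coding transcript of GENCODE M21. That annotation and the RefSeq promoters are of GRCm38.p6, another build than mm9, and served for lengths, GC content, neighbours and sequence. Of 19799 symbols 18657 matched directly, 981 by an older symbol and 161 not. The script was tested on simulated data.

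The members and gene lists were chosen with earlier results of these data known. Named genes are all members, up to 2 genes per list and direction with the smallest adjusted p in each induction and in GFP-line differentiation, the Cdkn and D-type cyclin genes in msx2 induction, and the 3 genes most correlated with a member (log2 CPM, prior count 2). Genes listed at 0 or below the filter were not tested.

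As alternatives, TMM was replaced by RLE or upper-quartile scaling, and the filter by none or by 5 CPM in 3 libraries. Others were the replicate block, the compared groups alone, DESeq2 1.42.0, each library left out in turn and, chosen after seeing the data, a GC offset over 10 groups of genes with and without the block. Deviations from group means of same-numbered libraries correlated at 0.207 to 0.508 between uninduced and induced msx2-line myotubes and at 0.359 to 0.453 in the GFP line (3 pairs each), so the numbers pair the libraries in induction. Replicate libraries differed by more than sampling noise, with chi-square per degree of freedom of 1.95 for the GFP-line myoblast pair, 24.8 for the msx2-line pair and 10.5 to 31.3 within myotube groups.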

Additional observations from a re-analysis of the deposited data

Results flagged for a closer look

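The induction of 3 members differed between the msx2 and the GFP line in a test of the difference itself (edgeR, adjusted over all tested genes). The change of E2f1 was 1.45 higher on the log2 scale in the msx2 line (adjusted p = 0.000302) and that of E2f2 was 1.63 higher (adjusted p = 2.27e-06). For E2f8 the difference was -1.23 (adjusted p = 0.033). E2f1 and E2f2 were higher in 3 of 3 induced msx2-line libraries than in every uninduced one, and E2f8 was lower in 3 of 3.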

How the results depend on the processing

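Of 100 member results (10 genes in 10 comparisons), 42 passed, and 36 of these passed under each of 9 alternatives and with each of 16 libraries left out in turn. The other 6 lost the call at least once: E2f3, Rb1 (msx2 induction), E2f8 (induction difference), E2f4, E2f8 (GFP-line differentiation) and E2f4 (induced lines). Of the 58 that did not pass, 15 passed at least once, and 0 changed sign with a call. The E2f8 difference also lost its call without the filter (adjusted p = 0.0538) and with the compared groups alone (0.0569).

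With the replicate block, 5 members in place of 3 passed for the induction difference (2 higher, 3 lower, with E2f3 and Rb1 added). With the GC offset and the block other members made up the 5 (3 higher, 2 lower, with Rb1 and Rbl2 added). The block alone gave 1 (E2f4, -0.37, edgeR adjusted p = 0.0444) in place of 0 for the differentiation difference. There the numbers did not pair myotubes with myoblasts (correlations of -0.01 to 0.011). Same-numbered uninduced myotubes of the 2 lines correlated at 0.177 to 0.288. The block ended no call. DESeq2 also called 1 for the differentiation difference and 1 in uninduced myotubes. With the compared groups alone, 3 members passed in msx2 induction and 6 in myoblasts (5 higher, 1 lower). With 1 library left out, the counts were 3 to 5 for msx2 induction, 0 to 0 for GFP induction, 2 to 4 for their difference, 7 to 9 and 9 to 9 for GFP-line and msx2-line differentiation, 0 to 1 for their difference (1 without msx2-line uninduced myotube replicate 2), 5 to 6 for induced lines, 0 to 0 for uninduced lines, 1 to 1 for myoblasts and 9 to 9 for induced myotubes against myoblasts. An arm left with 1 library was assumed to vary like the other groups. Upper-quartile scaling moved the median of all genes by 0.147 to 0.216 and the 5 CPM filter by 0.16 to 0.223 (log2) in comparisons of myotubes with myoblasts. With the GC offset and the block, 11 upstream genes (3 higher, 8 lower) in place of 6 (2 higher, 4 lower) and 4 PRC1.6 genes (3 higher, 1 lower) in place of 2 (0 higher, 2 lower) passed in msx2 induction. The cause of these changes was not tested, and the share of all genes called under each alternative was not counted. E2f7 in myotubes stood at only 1.69 to 3.94 CPM.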
